A study of Mus musculus with 2 samples.

Results

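The enzymes of prostaglandin and leukotriene synthesis were described as 10 genes chosen by their symbols, of 22886 gene symbols in the files: Ptgs1, Ptgs2, Ptges, Ptgds, Ptgis, Hpgds, Tbxas1, Alox5, Alox5ap and Lta4h. Each symbol had 1 line in both files, and 8 of the 10 averaged 1 RPKM or more over both libraries, as did 10982 genes in all. RPKM counts reads per kilobase of transcript, scaled to a fixed total of mapped reads, so levels of different genes are comparable per length. Ptgds and Ptgis fell below that level. The series holds 2 polyA RNA-seq libraries of cells sorted by flow cytometry from subcutaneous tumors of LLC, a mouse lung carcinoma line, in wild-type C57BL/6 mice. One came from mice injected with vehicle and the other from mice injected with clodronate, an agent used to deplete phagocytes. The labels name the sorted population as aerobic tumor cells, while their growth protocol names EML cells, a hematopoietic line, so the identity of the sorted cells is not settled by the labels. The sources used here do not give age, sex, dose, time or the number of animals behind each library. Each condition had 1 library, so no difference below has a replicate check and no test was made.

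Arachidonic acid is freed from membrane phospholipids by phospholipases and then enters 1 of several routes. Cyclooxygenases turn it into prostaglandin H, from which terminal synthases make prostaglandins, prostacyclin or thromboxane. Lipoxygenases turn it into leukotrienes, among them leukotriene B, which attracts granulocytes, and the cysteinyl leukotrienes. Macrophages and granulocytes are well known sources of these lipids, platelets of thromboxane, and endothelium of prostacyclin.

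The labelled tumor cells were checked against marker genes. All 10 macrophage markers passed the level filter, with summed levels of 21306 RPKM in the vehicle library and 20816 RPKM in the clodronate library. Lyz2 alone was listed at 10534 and 11189 RPKM. With clodronate 7 of the 10 were higher and 3 lower, with Mrc1 at 174 and 289 RPKM and C1qc at 3984 and 2043 RPKM. The near-equal sums therefore do not show equal macrophage content. The 7 epithelial and carcinoma markers summed to 15.0 and 11.0 RPKM, and Epcam, Krt19 and Cldn4 were listed at 0 in both libraries. Of the 4 above the filter, 2 were higher with clodronate, Cdh1 and Krt18, and 2 were lower, Krt8 and Krt7. Cdh1 was listed at 6.14 and 6.44 RPKM and Krt8 at 3.67 and 1.33 RPKM. Krt7, listed at 0 with clodronate, passed the filter only through the vehicle library. Both libraries therefore held macrophage transcripts at high level and few epithelial ones, whichever agent was given. In these bulk libraries, fewer cells of a type and less RNA per cell cannot be told apart.

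Depth was read from the steps of the RPKM values, and the reads behind the scaling came to about 1.37e+07 in the vehicle library and 1.12e+07 in the clodronate library. Read numbers and 95% intervals below are estimates from those steps and transcript lengths. They cover counting error only, not the difference between animals or preparations. A value of 0 is given as listed, since Ndufaf1, a mitochondrial assembly factor, had 0 RPKM with vehicle and 12.8 RPKM with clodronate.

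Upstream sequence is shown for the cyclooxygenases and for Hpgds, the members of the prostaglandin branch whose windows held one of the less common motifs searched. RefSeq (GRCm38.p6) gave windows for 8 of the 10 members, with none for Ptgis or Alox5ap. Each window holds the 250 bases before the annotated start, written 5′ to 3′ on the strand of the gene. The windows are chr2:36230176-36230425 on the plus strand for Ptgs1, chr1:150099781-150100030 on the plus strand for Ptgs2 and chr6:65144731-65144980 on the minus strand for Hpgds, and capitals mark the motif matches.
Ptgs1: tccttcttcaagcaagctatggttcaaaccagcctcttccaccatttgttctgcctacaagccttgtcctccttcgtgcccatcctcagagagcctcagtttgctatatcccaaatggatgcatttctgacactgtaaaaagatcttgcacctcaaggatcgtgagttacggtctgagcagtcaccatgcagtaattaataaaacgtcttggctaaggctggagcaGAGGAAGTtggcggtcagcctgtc
Ptgs2: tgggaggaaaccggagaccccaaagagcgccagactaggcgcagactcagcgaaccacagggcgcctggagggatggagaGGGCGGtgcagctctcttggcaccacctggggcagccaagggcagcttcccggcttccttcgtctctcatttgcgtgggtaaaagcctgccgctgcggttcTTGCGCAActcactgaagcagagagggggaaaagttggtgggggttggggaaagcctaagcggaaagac
Hpgds: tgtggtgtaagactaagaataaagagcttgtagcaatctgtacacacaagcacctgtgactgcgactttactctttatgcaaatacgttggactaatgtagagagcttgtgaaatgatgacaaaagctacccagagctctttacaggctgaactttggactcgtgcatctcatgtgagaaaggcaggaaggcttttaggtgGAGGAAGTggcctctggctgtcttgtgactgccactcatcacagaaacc
The motifs were searched on both strands and were chosen after the windows had been seen. GAGGAAGT, a purine-rich sequence of the kind bound by ETS factors, was found in 2 of the 8 windows, those of Ptgs1 and Hpgds, and in 2.44% of all 32851 windows. TTGCGCAA, a sequence of the kind bound by C/EBP factors, was found only in the Ptgs2 window among the 8, and in 0.164% of all windows. GGGCGG was found in 3 of the 8, those of Ptgs2, Ptges and Alox5, and in 32.7% of all windows. TATAAA was found only in the Tbxas1 window among the 8, against 12.4% of all windows. ACGTCA and CACGTG were in none of the 8 and in 6.47% and 6.02% of all windows. A match describes letters in a window and says nothing of binding.

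**Figure D1:**
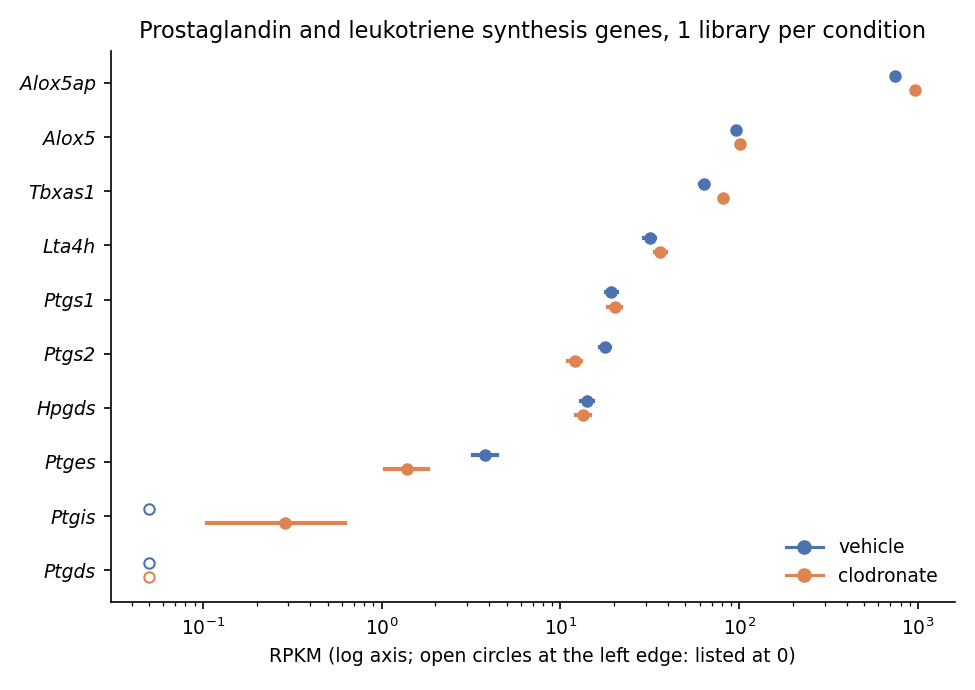
Level of each member in RPKM in the vehicle and clodronate libraries, 1 point per library, with 95% counting intervals as bars. Alox5ap is highest in both, at 747 and 960 RPKM, and Ptgds is listed at 0 in both.

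Alox5ap, the membrane protein that presents arachidonate to Alox5, was the most abundant member and made up 75.2% of the members' summed RPKM in the vehicle library and 78.3% in the clodronate library. Alox5ap, Alox5, Tbxas1, Lta4h and Ptgs1 held the first 5 places in that order in both libraries, and Ptges was eighth in both. Ptgs2 and Hpgds exchanged places 6 and 7. In the vehicle library the intervals of Ptgs1 and Ptgs2 overlapped, and in the clodronate library those of Hpgds and Ptgs2 did.

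None of the 8 members above the filter was 3-fold higher or 3-fold lower in the clodronate library, on the log2(RPKM + 1) scale used for all log2 ratios here. Over all 10982 genes, 2.86% were 3-fold higher and 2.32% were 3-fold lower. At 2-fold, 1 member was lower and none was higher, beside 6.77% of all genes lower and 6.95% higher. The members' median log2 ratio of clodronate to vehicle was 0.064, beside 0.019 over all genes, and 5 of the 8 were higher and 3 lower. Every one of the 8 lay inside the central 90% of log2 ratios of genes of similar level, taken as those whose mean RPKM was within 2-fold of the member's. For Alox5ap the upper limit of that range was a log2 ratio of 5.92, too wide to tell a high value apart.

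**Figure D2:**
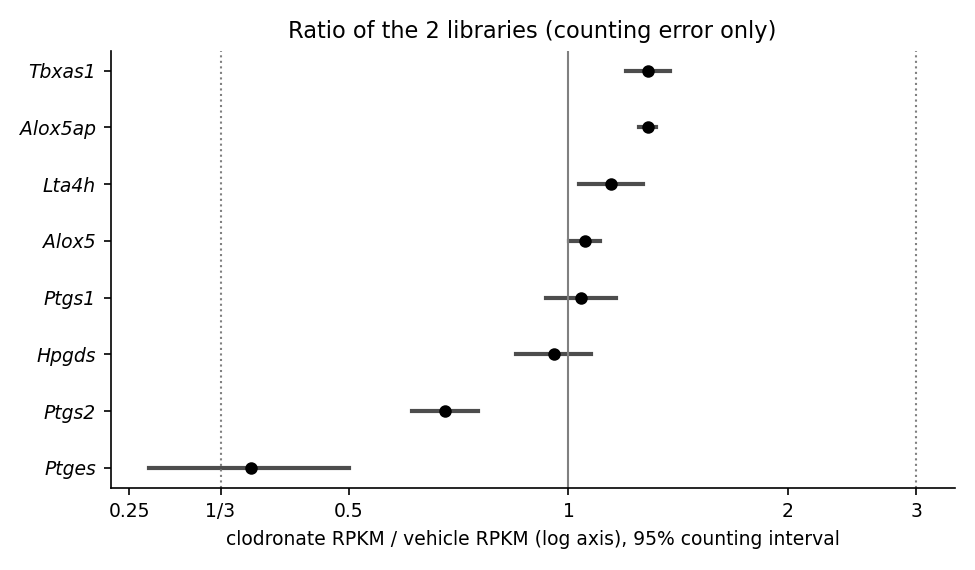
Ratio of clodronate to vehicle RPKM for each member above the filter, on a log axis, with 95% counting intervals as bars. Ptges is lowest at 0.368 and Tbxas1 is highest at 1.29.

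**Figure D3:**
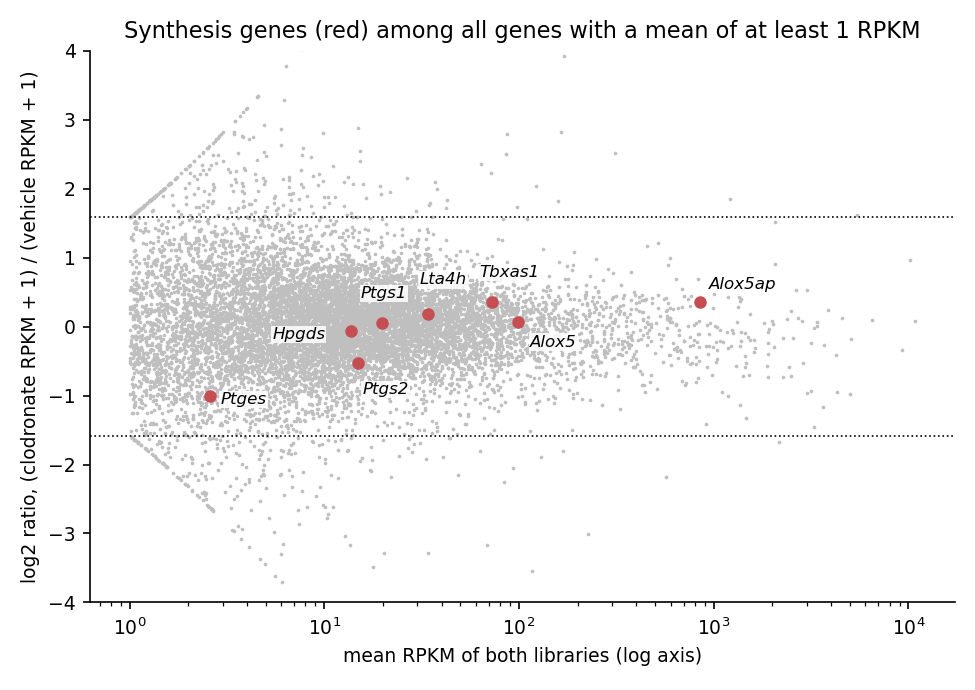
Log2 ratio of clodronate to vehicle against mean RPKM on a log axis for all genes above the filter, with the members named. The vertical axis is cut at 4 on either side, which leaves 52 genes outside, and the members lie between the 3-fold limits.

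Of the cyclooxygenases, Ptgs1, the form most cells make at a steady level, was listed at 19.3 RPKM (95% counting interval 17.9 to 20.8) with vehicle and 20.1 RPKM (18.5 to 21.8) with clodronate. The ratio was 1.04 (0.933 to 1.16), and its direction turned under other scalings. In GENCODE an antisense gene, Gm43621, overlaps its exons, and reads of the pair cannot be told apart. Ptgs1 lies at chr2:36085946-36107789 (mm9, the build of the files, as for every gene locus given with its values). Ptgs2, the form induced by inflammatory stimuli, was listed at 17.8 RPKM (16.7 to 18.9) with vehicle and 12.04 RPKM (11.1 to 13.1) with clodronate. Its ratio was 0.677 (0.611 to 0.751), from about 1038 and 574 reads, and the intervals of the 2 libraries did not overlap. Of the 4215 genes of similar level, 14.9% had a log2 ratio as low as that of Ptgs2, -0.53, or lower. The ratio of Ptgs1 to Ptgs2 RPKM within a library was 1.08 with vehicle and 1.67 with clodronate. Ptgs2 lies at chr1:151947254-151955142.

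Ptges, the inducible microsomal prostaglandin E synthase, had the lowest ratio of the 8 members. It was listed at 3.79 RPKM (3.26 to 4.39) with vehicle and 1.39 RPKM (1.05 to 1.82) with clodronate, from about 179 and 54 reads. The ratio was 0.368 (0.266 to 0.501) and the log2 ratio -1.001, just past the 2-fold limit. Of the 2734 genes of similar level, 12.5% had a log2 ratio as low or lower. Ptges lies at chr2:30744991-30758817. Fibroblast markers were mostly lower in the clodronate library: 7 of the 8 above the filter, of 10 listed, with summed levels of 160 and 76.9 RPKM. Among all genes above the filter, 5318 of 10982 were lower. Dcn, a matrix proteoglycan, was listed at 77.3 and 28.4 RPKM. Postn, at 2.21 and 0.364 RPKM, passed the filter only through the vehicle library. The 1 fibroblast marker above the filter that was higher was Col1a1, a collagen, at 2.32 and 5.40 RPKM. Col1a2, counted among the 7, was nearly level at 2.01 and 1.94 RPKM. No defining fibroblast marker was listed at 0 in both libraries, though Pdgfrb was listed at 0 with vehicle and 0.290 RPKM with clodronate. The part of fibroblast transcripts in the Ptges values was not tested.

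Ptges2 and Ptges3, which also make prostaglandin E, were measured beside Ptges. Ptges2 was listed at 7.01 RPKM with vehicle and 5.74 RPKM with clodronate, above Ptges in both. Ptges3, also a chaperone partner, was listed at 30.0 and 28.2 RPKM. Neither reached a 2-fold difference. With Cbr1, Akr1b3 and Fam213b, which make other prostaglandins, they form a list of 5 genes, of which 3 were higher and 2 lower, with a median log2 ratio of 0.047. Akr1b3, an aldose reductase that can make prostaglandin F, was the most abundant, at 119 and 130 RPKM.

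Hpgds, the hematopoietic prostaglandin D synthase, was listed at 14.1 RPKM (13.0 to 15.2) with vehicle and 13.4 RPKM (12.3 to 14.7) with clodronate. The ratio was 0.954 (0.846 to 1.07), and its direction turned with a correction for GC content and length. Hpgds lies at chr6:65067287-65094724. Mast cells also make Hpgds, and the 9 mast cell markers summed to 120 and 99.1 RPKM, with Ms4a2 listed at 0 in both. Of the 7 above the filter, 3 were higher and 4 lower with clodronate: Cpa3, a granule protease, was listed at 33.0 and 21.6 RPKM and Tpsb2, a tryptase, at 23.6 and 27.6 RPKM. Their part in the Hpgds values was not tested. Ptgds, the lipocalin-type prostaglandin D synthase at chr2:25322232-25325269, was listed at 0 in both libraries.

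Tbxas1, the thromboxane synthase, was the highest of the 5 terminal synthases among the members, and lower than Akr1b3. It was listed at 63.4 RPKM (60.3 to 66.6) with vehicle and 81.5 RPKM (77.6 to 85.5) with clodronate, and these intervals did not overlap. The ratio was 1.29 (1.20 to 1.38), and 20.0% of the 1618 genes of similar level had a log2 ratio as high as its 0.36 or higher. Within a library, Tbxas1 stood 4.50 times as high as Hpgds with vehicle and 6.06 times with clodronate, and 16.7 and 58.5 times as high as Ptges. Tbxas1 lies at chr6:38868985-39034578, where its locus overlaps 1700025N23Rik in the files and the antisense gene Gm42962 in GENCODE. Platelet markers summed to 462 RPKM with vehicle and 644 RPKM with clodronate, nearly all of it Pf4, a chemokine that macrophages also make, at 437 and 600 RPKM. Of the 4 platelet markers above the filter, 3 were higher and 1 lower. Ppbp, another platelet chemokine, was listed at 21.3 and 40.4 RPKM. Of the surface glycoproteins, Gp1ba was listed at 1.896 and 0.387 RPKM and Gp1bb at 0.151 and 1.16 RPKM, and Gp9 and Gp6 were listed at 0 in both libraries. The part of platelet transcripts in the Tbxas1 values was not tested.

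Ptgis, the prostacyclin synthase at chr2:167028696-167066037, was listed at 0 with vehicle and at 0.287 RPKM (0.105 to 0.625) with clodronate, from about 6 reads. No ratio is given at that level, and the antisense gene 1110018N20Rik overlaps its exons in GENCODE. The 9 endothelial markers summed to 3.34 and 8.31 RPKM, and the 2 above the filter were both higher with clodronate. Among all genes above the filter, 5664 of 10982 were higher. Cdh5, an endothelial cadherin, was listed at 0.480 and 3.24 RPKM. It passed the filter only through the clodronate library, so the filter fixed its direction. Below the filter, Vwf went the other way, at 0.967 and 0.443 RPKM, and Kdr was at 0.650 and 0.831 RPKM. Tek, Egfl7 and Emcn were listed at 0 in both, and the part of endothelial transcripts in the Ptgis values was not tested.

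All 3 leukotriene enzymes had higher listed values with clodronate, with a summed level of 875 RPKM with vehicle and 1097 RPKM with clodronate and a median log2 ratio of 0.19. Alox5, the lipoxygenase that makes leukotriene A, was listed at 96.1 RPKM (92.9 to 99.3) and 101 RPKM (97.5 to 105). Its ratio was 1.05 (1.002 to 1.11), and its direction turned with a correction for GC content and length. Alox5 lies at chr6:116360089-116411196. Alox5ap was listed at 747 RPKM (733 to 762) with vehicle and 960 RPKM with clodronate, a ratio of 1.28 (1.25 to 1.32) from about 10770 and 11281 reads. With so many reads the counting interval is narrow, yet 21.2% of the 179 genes of similar level had a log2 ratio as high as its 0.36 or higher. Only 1.22% of genes above the filter were higher than Alox5ap with vehicle and 0.874% with clodronate. Alox5ap stood 7.78 times as high as Alox5 with vehicle and 9.50 times with clodronate. Alox5ap lies at chr5:150076634-150099623, and in GENCODE the antisense gene Gm19719 overlaps its exons.

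Lta4h, the hydrolase that makes leukotriene B, was listed at 31.6 RPKM (29.5 to 33.9) with vehicle and 36.2 RPKM (33.6 to 38.9) with clodronate. The intervals of the 2 libraries overlapped narrowly, and the ratio was 1.14 (1.03 to 1.27). Lta4h lies at chr10:92916141-92947641. Neutrophils also carry leukotriene enzymes. The neutrophil markers in the files summed to 46.1 RPKM with vehicle and 46.0 RPKM with clodronate, with 1 of the 4 above the filter higher and 3 lower. S100a8 was listed at 12.7 and 23.1 RPKM, while Csf3r was listed at 26.4 and 19.3 RPKM, Cxcr2 at 4.06 and 2.69 RPKM and Mmp8 at 2.999 and 0.909 RPKM. S100a9, Retnlg, Ngp, Camp and Ltf were listed at 0 in both, and the part of neutrophil transcripts in the leukotriene enzyme values was not tested.

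The other genes of the pathway were taken from lists of 59 symbols, of which 58 were in the files and 37 were above the filter. Of the 37, 22 were higher and 15 lower, with a median log2 ratio of 0.11, and 1 was 3-fold higher, none 3-fold lower. Over all genes above the filter, 5664 of 10982 were higher, and the 3-fold shares were 2.86% higher and 2.32% lower, so 1 of 37 is near the background. At 2-fold, 1 was higher and 2 were lower, beside 6.95% and 6.77% of all genes. The gene past 3-fold was Alox15, a lipoxygenase of eosinophils and resident macrophages, listed at 0 with vehicle and at 2.05 RPKM with clodronate. In all, 1413 genes were listed at 0 in the vehicle library only, and 788 in the clodronate library only. Alox15 passed the filter only through its clodronate value, and its 3-fold call rested on such a 0. It was no longer counted with upper quartile scaling, with the correction for GC content and length, or with the filter at 5 RPKM. Eosinophil markers summed to 5.89 and 3.74 RPKM, with Ccr3 at 2.58 and 0.869 RPKM, Prg2 at 0 and 1.54 RPKM, and Epx and Siglecf listed at 0 in both, and their part in the Alox15 values was not tested.

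**Figure D4:**
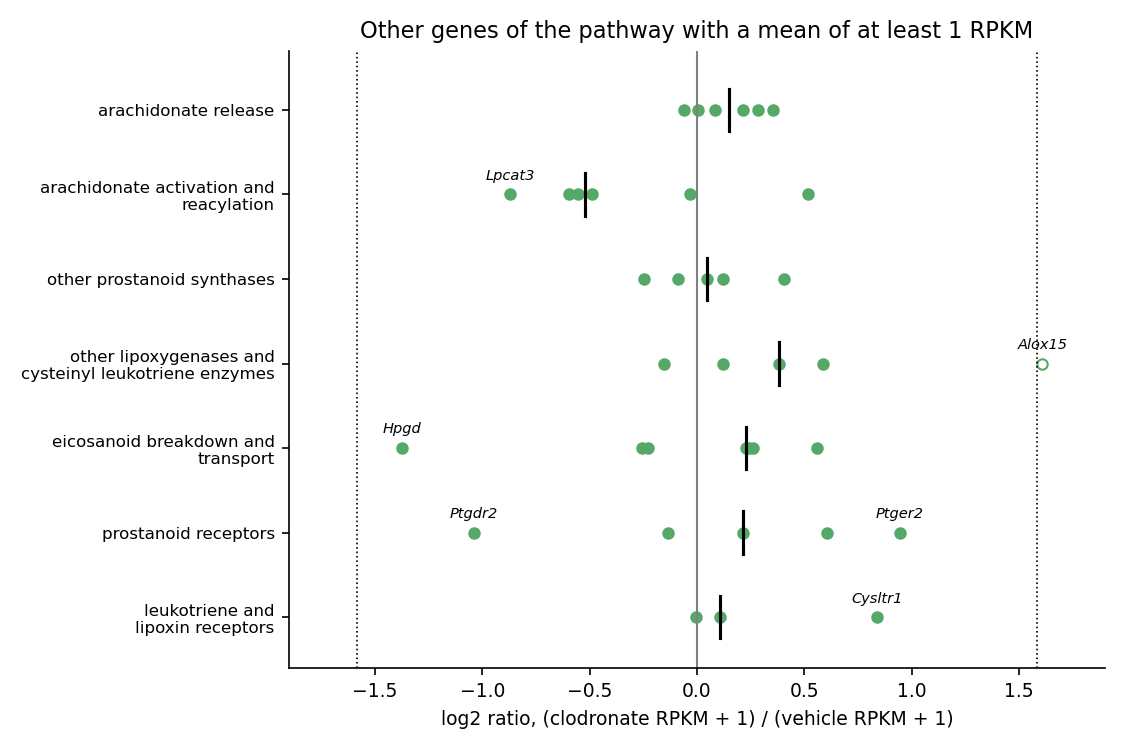
Log2 ratio of clodronate to vehicle for the other pathway genes above the filter, by list, 1 point per gene. Open circles are genes listed at 0 in 1 library, black bars are list medians and dotted lines mark 3-fold, and the reacylation list has the lowest median at -0.52.

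Genes that activate arachidonate and return it to phospholipids were mostly lower with clodronate: 5 of the 6 above the filter, with a median log2 ratio of -0.52. Over all genes above the filter, 5318 of 10982 were lower. Lpcat3, an acyltransferase, was listed at 32.0 and 17.1 RPKM, a ratio of 0.533 (0.472 to 0.6001), and 4.66% of the 3585 genes of similar level had a log2 ratio as low or lower. Lpcat2, another acyltransferase, was listed at 51.9 and 34.0 RPKM, a ratio of 0.654 (0.605 to 0.707). Acsl4 and Acsl5, acyl-CoA synthetases, went from 33.9 to 22.7 RPKM and from 29.8 to 20.9 RPKM. Acsl1, counted among the 5, was nearly level at 15.6 and 15.2 RPKM, a ratio of 0.976 (0.878 to 1.09). Mboat7, which returns arachidonate to phosphatidylinositol, was listed at 18.3 and 26.6 RPKM, against the others of the list. Of the 6 genes of arachidonate release above the filter, 5 were higher, with a median of 0.15. Pla2g4a, the cytosolic phospholipase that frees arachidonate, was listed at 13.0 RPKM in both libraries, a ratio of 1.002 (0.874 to 1.15).

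Downstream of leukotriene A, Ltc4s, the synthase of leukotriene C, was listed at 143 RPKM with vehicle and 215 RPKM with clodronate, a ratio of 1.505 (1.38 to 1.65). Of the 641 genes of similar level, 7.64% had a log2 ratio as high or higher. Ltc4s stood 4.52 times as high as Lta4h with vehicle and 5.95 times with clodronate. Cotl1, a partner protein of Alox5, was listed at 328 and 427 RPKM, and Dpep2, a dipeptidase of leukotriene D, at 192 and 172 RPKM. The list of other lipoxygenases and cysteinyl leukotriene enzymes had 4 of 5 genes higher, with a median log2 ratio of 0.38. Among all genes above the filter, 5664 of 10982 were higher. Of the 4, Alox15 passed the filter only through its clodronate value, so the filter fixed its direction. Alox12, the platelet-type lipoxygenase, stayed below the filter at 0.0781 and 0.670 RPKM, from about 3 and 21 reads. Ggt5, which converts leukotriene C to leukotriene D, was listed at 0 with vehicle and at 1.56 RPKM with clodronate, from about 74 reads. Dpep1, a dipeptidase also below the filter, was listed at 0.889 and 0.218 RPKM, from about 25 and 5 reads. Cysltr1, a receptor of cysteinyl leukotrienes, was listed at 15.9 and 29.2 RPKM, a ratio of 1.84 (1.70 to 1.99), and 6.17% of the 3714 genes of similar level were as high or higher. Cysltr2, the other such receptor, was listed at 0.941 RPKM with vehicle and at 0 with clodronate.

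Of the 7 genes of eicosanoid breakdown and transport above the filter, 4 were higher and 3 lower, with a median log2 ratio of 0.23, and the widest difference was that of Hpgd, the dehydrogenase that inactivates prostaglandins. Hpgd was listed at 6.61 RPKM with vehicle and 1.94 RPKM with clodronate, a ratio of 0.293 (0.193 to 0.434) from about 134 and 32 reads, and 4.71% of the 3375 genes of similar level were as low or lower. Abcc1, an exporter of leukotriene C, was listed at 37.9 and 56.4 RPKM, a ratio of 1.49 (1.42 to 1.56). Of the 5 prostanoid receptors above the filter, 3 were higher and 2 lower. Ptger2, a prostaglandin E receptor, was listed at 1.28 and 3.39 RPKM, a ratio of 2.64 (1.94 to 3.64). Of the 2622 genes of similar level, 14.8% had a log2 ratio as high or higher. Ptger1 was listed at 14.4 and 22.5 RPKM and Ptger4 at 14.4 and 16.9 RPKM. Ptgdr2, a prostaglandin D receptor, was listed at 2.85 and 0.874 RPKM, a ratio of 0.306 (0.187 to 0.483) from about 96 and 24 reads. Of the 2280 genes of similar level, 12.8% had a log2 ratio as low or lower. Tbxa2r, the thromboxane receptor, was listed at 0 in both libraries, while its ligand's synthase Tbxas1 was among the most abundant members. Of the 3 leukotriene and lipoxin receptors above the filter, 2 were higher and 1 lower. Ltb4r1 was listed at 9.03 and 9.80 RPKM and Fpr2 at 2.86 and 2.85 RPKM.

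**Figure D5:**
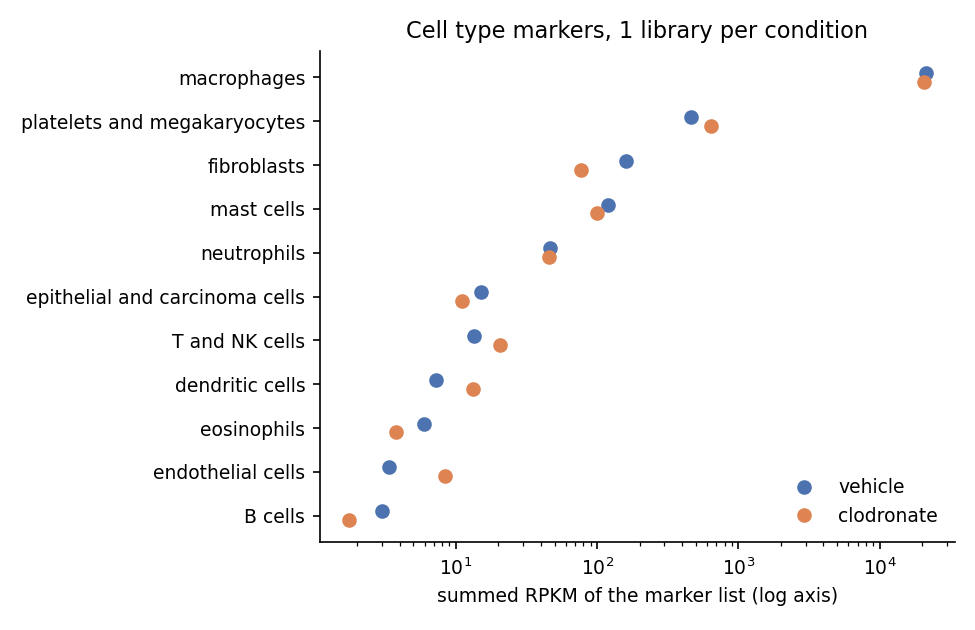
Summed RPKM of each marker list in the vehicle and clodronate libraries, on a log axis, 1 point per library. Macrophage markers are highest in both, at 21306 and 20816 RPKM, and the fibroblast sum is 160 with vehicle and 76.9 with clodronate.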

How the data were processed

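PolyA RNA of 2 sorted tumor cell populations, 1 library per condition, was sequenced. The authors deposited RPKM values per locus with mm9 positions. The submitters' processing notes name CASAVA 1.8.2, TopHat2 2.0.9, Bowtie 0.12.9, Cufflinks 2.2.1 and Cuffdiff. The annotation release and the strand setting are not given in the sources used here, so reads of overlapping or antisense genes cannot be told apart. The paper linked to the series describes adipose tissue macrophages and not these libraries.

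From these values, RPKM was summed over lines of the same symbol, genes averaging under 1 RPKM were left out of counts, and log2 ratios used a pseudocount of 1 RPKM. A gene under 1 RPKM in 1 library could pass that filter only through the other library, so the filter fixed its direction. Locus starts, which count from 0, were raised by 1. RPKM multiplied by transcript length less about 202 bases fell on multiples of the value of 1 read. Lengths came from GENCODE M21 (GRCm38) transcripts of the same RefSeq accession, so read numbers are approximate. Intervals are exact Poisson for a level and exact Clopper-Pearson for a ratio, at 95%. The step was read from loci of 1 to 10 reads, where 65.1% of vehicle and 63.7% of clodronate loci lay within 0.05 reads of a whole number. The scripts were tested on simulated data. Values were computed with scipy 1.17.1, pandas 2.3.3 and numpy 2.4.6 under Python 3.11.15. By rule, every member was named, as was each listed pathway gene at least 2-fold higher or lower. Other listed genes could be named, and those were picked after their values were seen. The members and lists were chosen with earlier results of these data known. Alternatives were another pseudocount, filter, scaling, line choice, fold limit and, added after seeing the data, a correction for GC content and length.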

Additional observations from a re-analysis of the deposited data

How the results depend on the processing

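No paired analysis was possible because neither condition has a second library. No member was 3-fold higher or lower under any setting at that limit. At 2-fold, 1 member and 2 other pathway genes were lower. With a pseudocount of 0.1, 2 other pathway genes were 3-fold lower. With the filter at 5 RPKM, with upper quartile scaling and with the correction for GC content and length, 0 were 3-fold higher, against 1, Alox15, as reported. Of 94 comparisons with the values as reported, 83 stayed within their counting interval or set limit and 11 moved beyond it. The limit for the members' median was set at 0.1. The line choice and the filter could not alter the ratio of a single member, so part of the 83 was fixed in advance. Members whose log2 ratio is near 0 changed sign: Ptgs1 to -0.0035 with upper quartile scaling and -0.03 with the correction, Hpgds to 0.14 and Alox5 to -0.028 with the correction. Alox5ap, at 0.36 as reported, was at 0.30 with upper quartile scaling and 0.42 with the correction, both beyond its counting interval. Ptgs2 was at -0.35 under the correction, also beyond its interval. With a pseudocount of 0.1 Ptges was at -1.38, within its interval. The causes were not tested. Over all genes, 3-fold higher and lower counts were 314 and 255 as reported, 532 and 480 with a pseudocount of 0.1, and 127 and 101 with the filter at 5 RPKM, and 2-fold counts were 763 and 744. With 1 library per condition the data cannot separate the injected agent from any other difference between the libraries, and counting intervals do not measure that difference.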
